A study of Gallus gallus and Anas platyrhynchos and Coturnix japonica with 43 samples.

Results

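Chicken liver was compared with chicken abdominal fat, the visceral fat pad of the bird, on 8 of the 43 two-colour spotted cDNA arrays of a study that tried a chicken array on tissues of several bird species. The 8 arrays were taken by their labels, 4 as liver and 4 as abdominal fat. All of them held tissue of control broiler cockerels of the Ross x Cobb cross that were 6 weeks old and fed without restriction. Each array carried the sample's cDNA labelled with Cy3 and, labelled with Cy5, cDNA of a reference pool that mixed equal amounts of RNA of the 4 chicken tissues, hypothalamus, breast muscle, abdominal fat and liver. Breast muscle of birds of the same kind and age (4 arrays) and hypothalamus of lean line birds at 9 weeks (4 arrays) enter the shared estimate of the spread, as do all 43 arrays, and their levels are given below for context. Nothing in the labels says that the replicates came from different birds, so the spread behind the p-values may be only technical.

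In birds the liver is the main site where fatty acids are made from carbohydrate. It packs them as triglyceride into very low density lipoprotein, built on apolipoprotein B, and adipocytes take up the fatty acids and store them again as triglyceride in a droplet coated by perilipin. The liver also makes most plasma proteins, among them albumin, fibrinogen, complement and protease inhibitors. Adipose tissue is held together by a connective tissue of fibrillar and type VI collagens laid down by fibroblasts and by the adipocytes themselves. Both samples are whole tissues, so fewer cells of a type and less RNA per cell cannot be told apart.

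Values are log2 ratios to the pool, centred on the median of each array, and a difference is the mean of the liver arrays minus the mean of the fat arrays, so that 1 log2 unit is a doubling. The deposited ratios were read as sample over pool. That direction is likely rather than stated, since albumin lay above the pool in liver and fatty acid binding protein 4 above it in fat. Because the pool contains liver and fat RNA, a transcript of 1 tissue can lie only a little above 0 in that tissue and far below 0 elsewhere. Liver RNA was isolated with a column kit and fat RNA by guanidine thiocyanate lysis and a caesium chloride gradient, so tissue and extraction method cannot be told apart.

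The arrays of a tissue resembled each other only loosely. Over 6438 genes, pairs of liver arrays correlated at 0.0406 to 0.634 and pairs of fat arrays at 0.102 to 0.53, against -0.295 to 0.403 between liver and fat. Liver replicate 3 and fat replicate 3 stood apart, with median correlations of 0.0906 and 0.12 with the other arrays of their own tissue, and counts are therefore also given without both of them. No spot intensities were used, so how far each spot stood above background is not known here, and precision is limited by having 4 arrays per tissue. The fold ratios given below often rest on readings far below the pool in the other tissue. They are ratios of array readings and may differ from the ratios of the transcripts.

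The fit called 154 of 6438 genes between liver and fat, 2.39% of those tested, at an adjusted p under 0.05 (limma over all 43 arrays, Benjamini-Hochberg). Of these, 94 were higher in liver (1.46% of all genes) and 60 were lower (0.932%). The smallest called difference was 0.885. In 141 of the 154 the 4 liver and 4 fat arrays did not overlap, which held for 401 of all genes (6.23%), 213 with liver above fat (3.31%) and 188 below (2.92%). The median difference of all genes was 0.01. Without both replicate 3 arrays 132 genes were called, 78 higher and 54 lower, and 124 of them were among the 154. Leaving out liver replicate 1 left 100 calls. The calls higher in liver were 56 without fat replicate 1, and those lower were 32 without liver replicate 1, 28 without liver replicate 2 and 36 without fat replicate 3.

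Albumin (ALB), the main protein of blood plasma, stood at 0.83, 1.06, 0.94 and 0.43 in liver replicates 1 to 4, against -2.16, -1.76, -2.77 and -1.45 in fat replicates 1 to 4. The lowest liver array lay well above the highest fat array, and the difference of 2.85 (SE 0.42, adjusted p = 2.15e-05) is a 7.23-fold ratio. Fatty acid binding protein 4 (FABP4), the fatty acid carrier of adipocytes, went the other way and read -2.83, -3.23, -1.46 and -1.84 in liver, against 0.52, 0.26, 2.02 and 1.49 in fat. Its tissues did not overlap either, its difference was -3.41 (SE 0.47, adjusted p = 7.85e-06), and fat exceeded liver 10.6-fold. Both clones of FABP4 were called, at -3.77 and -3.06, and of the 2 clones of ALB 1 was called at 3.77 and the other read 1.94 (adjusted p = 0.0776). In the values per array below, replicates always stand in the order 1 to 4.

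**Figure D1:**
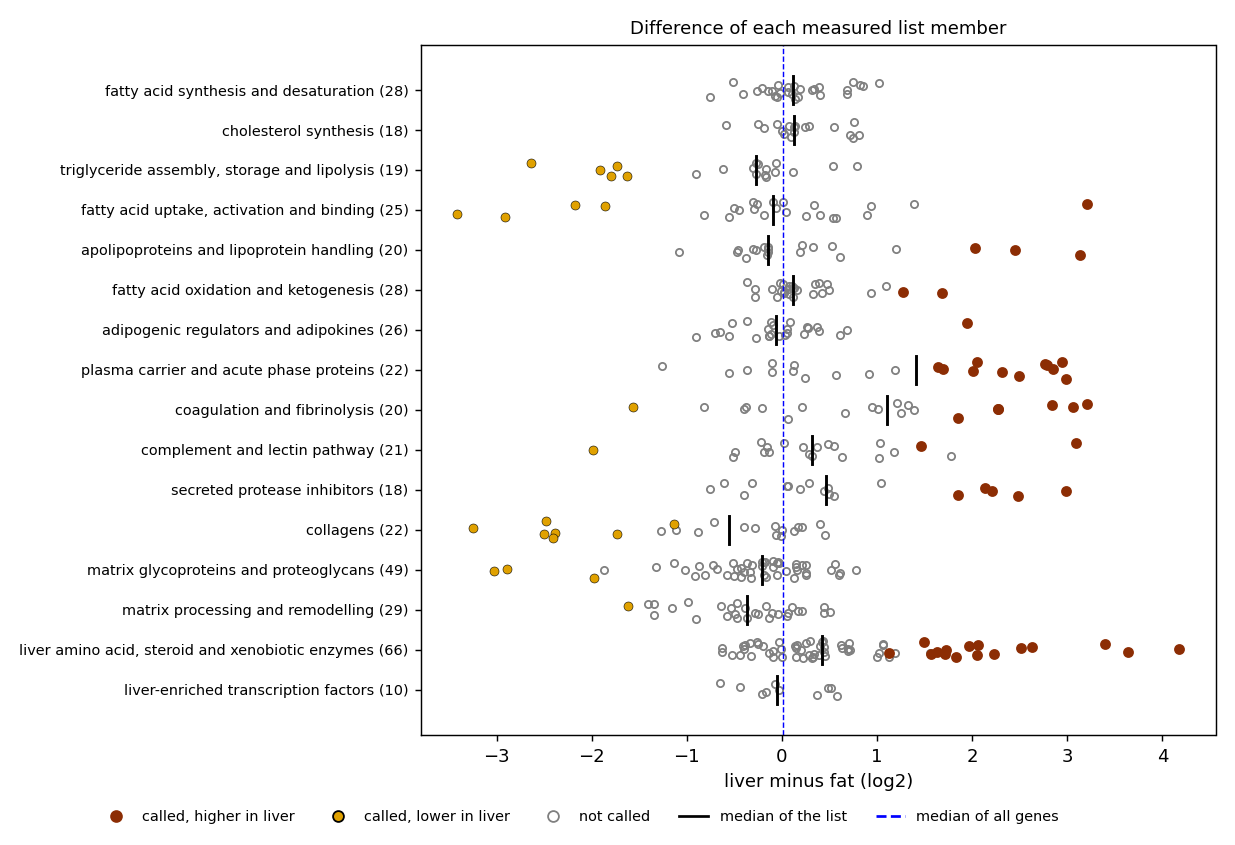
Difference between liver and fat on the log2 scale for every measured member of 16 gene lists, 1 point per gene, with the number measured in brackets. Filled points passed the test, dark for higher in liver and light for lower, black bars are list medians and the dashed line is the median of all genes, 0.01. Plasma carrier proteins have 11 filled points on the liver side and collagens 7 on the fat side, while fatty acid and cholesterol synthesis have 0. Of all genes 1.46% were called higher in liver and 0.932% lower, so a count of 0 does not set a list apart.

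Plasma carriers and acute phase proteins had the highest median difference of the 16 lists. Of 22 measured genes 11 were higher in liver and 0 lower, with a median difference of 1.41. These counts, and those of the lists below, stand beside 1.46% called higher and 0.932% lower over all genes. All 16 lists were chosen with earlier results of these data known. Their counts and medians are therefore descriptions and no independent evidence of a direction. Transthyretin (TTR), which carries thyroid hormone, stood at 0.74, 0.57, 1.23 and 0.92 in liver, against -2.04, -3.07, -2.07 and -1.15 in fat, a difference of 2.94 (adjusted p = 0.000284) without overlap. The vitamin D carrier GC differed by 2.77 (adjusted p = 0.000843) and the plasma retinol carrier RBP4A by 2.50 (adjusted p = 0.00554). A second retinol-binding gene, RBP4, read by 1 other clone, was not called at -0.37 (adjusted p = 0.999). Among iron and haem carriers, transferrin (TF) differed by 1.70 (adjusted p = 0.00638) and hemopexin (HPX) by 1.64 (adjusted p = 0.00792). The mean of TF hides a disagreement, as 2 of its clones differed by 2.28 and 3.04 and the other by -0.23. Alpha-1-microglobulin/bikunin (AMBP) at 2.99 (adjusted p = 0.00139), orosomucoid (ORM1) at 2.79 (adjusted p = 0.000949) and inter-alpha-trypsin inhibitor chain ITIH2 at 2.32 (adjusted p = 0.000318) were higher in liver too. The fetuins AHSG and FETUB, inhibitors of mineral precipitation and of proteases, differed by 2.05 (adjusted p = 0.0355) and 2.01 (adjusted p = 0.0207). The 2 clones of AHSG disagreed, at 0.01 and 4.09, so the mean describes neither, and those of HPX read 0.52 and 2.77. AHSG was high on 1 liver array, replicate 3, and its adjusted p was 0.27 without both replicate 3 arrays and up to 0.215 when liver replicate 1 or 3 or fat replicate 1, 2 or 3 was left out. FETUB lost its call without liver replicate 1 or fat replicate 1 or 2, with adjusted p up to 0.173, TF without fat replicate 1 (0.0679) and HPX without fat replicate 1 (0.0559). Without fat replicate 1 the list kept 7 calls, and without both replicate 3 arrays 10. The 11 carriers not called ran from ITIH5 at -1.26 (adjusted p = 0.0858) to PON1 at 1.19 (adjusted p = 0.264).

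Of 20 coagulation and fibrinolysis genes 6 were higher in liver and 1 was lower, with a median of 1.11. The fibrinogen chains that form the clot did not read alike. The beta chain FGB stood at 1.01, -0.25, 0.68 and 1.17 in liver, against -2.26, -3.24, -2.18 and -1.93 in fat, a difference of 3.06 (adjusted p = 6.3e-06). The alpha chain FGA differed by 2.28 (adjusted p = 0.000318), the mean of 3 clones at 0.61, 2.78 and 3.44, while the gamma chain FGG, on 1 clone, was not called at 0.66 (adjusted p = 0.868) and overlapped. Plasminogen (PLG), the precursor of the enzyme that dissolves fibrin, was even across livers at 1.23, 0.95, 1.15 and 1.21, against -2.36, -2.04, -1.74 and -0.72 in fat, and differed by 2.84 (adjusted p = 7.85e-06). Vitronectin (VTN), a plasma adhesion protein that also stabilises a clotting inhibitor, differed by 3.21 (adjusted p = 7.11e-05), factor IX (F9) by 2.28 (adjusted p = 0.000863) and heparin cofactor II (SERPIND1) by 1.86 (adjusted p = 0.00991). SERPIND1 lost its call without liver replicate 4 or fat replicate 2, with adjusted p up to 0.0623. Factor VII (F7) at 1.21 (adjusted p = 0.0746) and factor X (F10) at 1.33 (adjusted p = 0.0891) did not overlap between tissues but missed the threshold. Prothrombin (F2) was not called either. Its clones read -0.03 and 2.05, and the higher was called on its own.

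The coagulation gene lower in liver was von Willebrand factor (VWF), which binds platelets and is made by endothelial cells rather than hepatocytes. It stood at -1.70, -1.76, -0.34 and -0.48 in liver, against 0.46, -0.29, 1.37 and 0.45 in fat, with fat replicate 2 only just above the highest liver array, and differed by -1.57 (adjusted p = 0.0242). The call was lost without liver replicate 1 or 2 or fat replicate 1, 3 or 4, with adjusted p up to 0.173, and was 0.0769 without both replicate 3 arrays. Of 11 endothelial marker genes 1, VWF itself, was called, and the mean level of that list was -0.36 to 0.03 in livers and 0.03 to 0.28 in fats.

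Among 21 complement and lectin pathway genes 2 were higher in liver and 1 was lower, with a median of 0.31. The shares called over all genes were 1.46% higher and 0.932% lower. The central component C3 stood at 1.50, 1.91, 1.75 and 1.14 in liver, against -2.20, -1.42, -1.12 and -1.32 in fat, a wide gap with a difference of 3.09 (adjusted p = 4.91e-06). The lectin pathway protease MASP1 was called at 1.46 (adjusted p = 0.0466), though its arrays overlapped and 6 of the 8 omissions of a single array took the call away, with adjusted p up to 0.306. These were the omissions of liver replicate 1, 2 or 3 and of fat replicate 1, 2 or 4. The collectin COLEC10, a secreted lectin that binds microbial sugars, was lower in liver, at -1.32, -1.80, 0.80 and 0.66, against 1.08, 1.66, 2.19 and 1.34 in fat. Liver replicates 1 and 2 were far below and replicates 3 and 4 close to the fat arrays, and the difference was -1.98 (adjusted p = 0.0202). It was not called without liver replicate 1 or 2 or fat replicate 2 or 3, with adjusted p up to 0.194. Complement factor I (CFI) did not overlap, but at 1.78 (adjusted p = 0.093) it was not called. Nor was component C2, with clones at 0.11 and 1.96, of which the higher was called on its own.

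Secreted protease inhibitors had 5 of 18 members higher in liver and 0 lower, with a median of 0.47. AMBP and SERPIND1, members of this list too, are given above. Alpha-2-macroglobulin (A2M), which traps proteases in plasma, stood at 0.92, 1.04, 0.78 and 0.63 in liver, against -1.81, -1.97, -1.12 and -0.57 in fat, a difference of 2.21 (adjusted p = 1.64e-05). Of its 4 clones, at 1.09, 1.30, 3.02 and 3.41, 2 were called on their own. SPIA4, a serine protease inhibitor of clade A, differed by 2.48 (adjusted p = 0.000818) and SPINK5, a Kazal-type inhibitor, by 2.14 (adjusted p = 0.000318), with its 3 clones spread over 0.30, 2.23 and 3.89. TIMP2, a tissue inhibitor of metalloproteinases, was not called at 0.44 (adjusted p = 0.961).

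**Figure D2:**
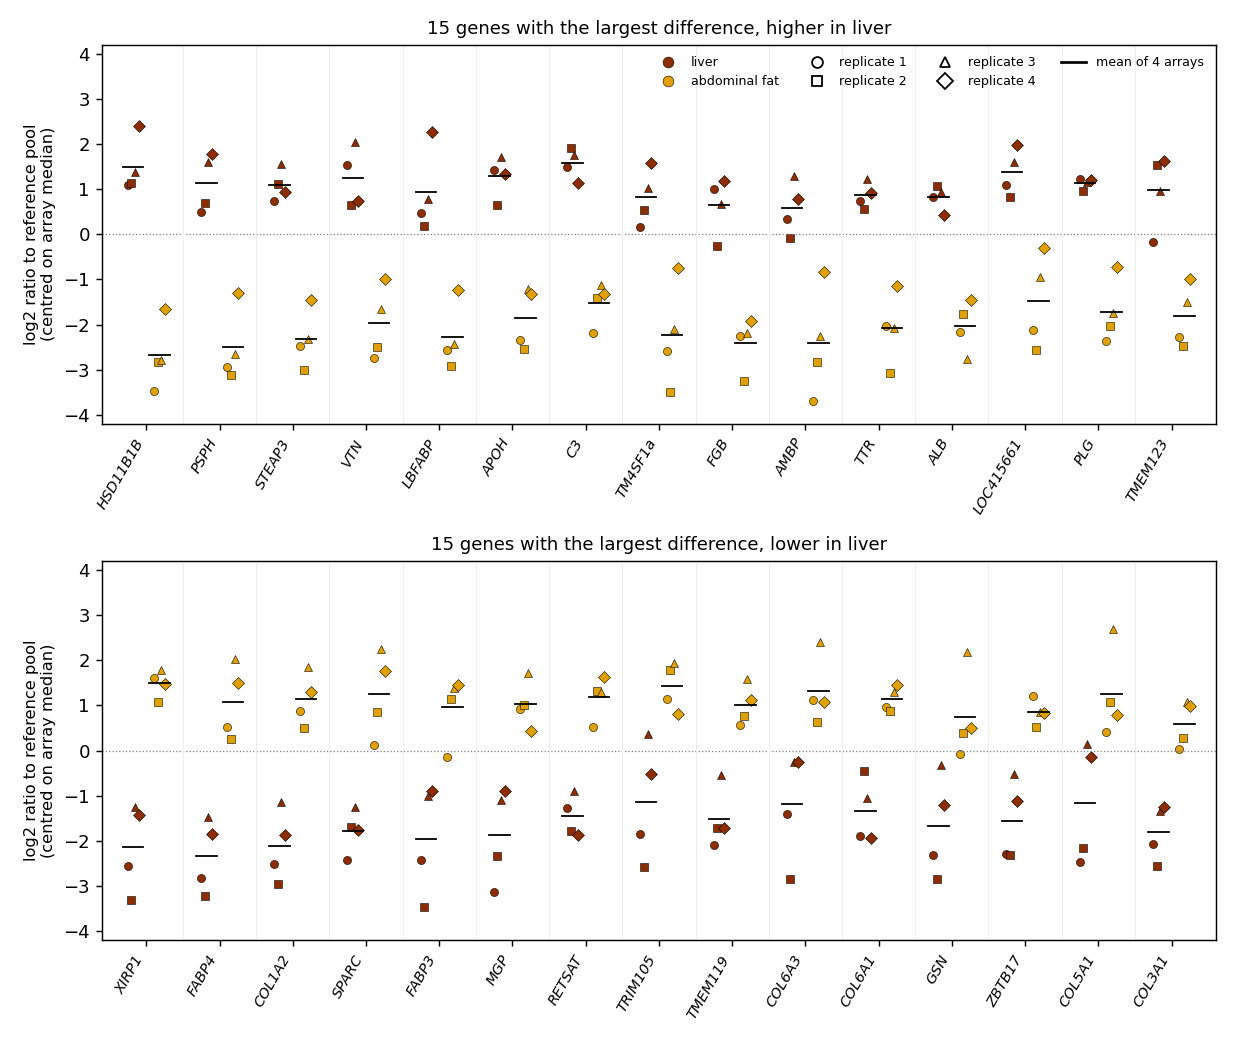
Log2 ratio to the reference pool on each liver (dark, left) and fat (light, right) array for the 15 called and not overlapping genes with the largest difference in each direction, with replicates by symbol and bars for means of 4 arrays. In the lower panel liver replicates 3 and 4 (triangles and diamonds) often lie nearer to the fat arrays than replicates 1 and 2.

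Lipoprotein genes were called in 1 direction only among the 20 measured, 3 higher in liver and 0 lower, yet the median was -0.14. The shares called over all genes were 1.46% higher and 0.932% lower. Apolipoprotein B (APOB), the structural protein of very low density lipoprotein, stood at 1.00, 1.01, 0.07 and 1.31 in liver, against -2.46, -2.43, -1.30 and -0.20 in fat. Liver replicate 3 was the lowest liver and fat replicate 4 the highest fat, and they did not meet. The difference was 2.45 (adjusted p = 0.000318), a 5.45-fold ratio. Apolipoprotein H (APOH), or beta-2-glycoprotein I, differed by 3.13 (adjusted p = 8.31e-05). Apolipoprotein A-I (APOA1), the core protein of high density lipoprotein, stood at 0.09, 0.50, 1.31 and 0.88 in liver, against -1.58, -2.80, -0.67 and -0.28 in fat, and differed by 2.03 (adjusted p = 0.0159). That call was lost without liver replicate 3 or 4 or fat replicate 1 or 2, with adjusted p up to 0.175, and was 0.0547 without both replicate 3 arrays. APOA4 at 0.33 (adjusted p = 0.999) and APOA5 at -0.15 (adjusted p = 0.999), apolipoproteins of triglyceride-rich particles, were not called, nor was LCAT, which esterifies plasma cholesterol, at 1.20 (adjusted p = 0.267). Of the 2 clones of LCAT, at 0.36 and 2.03, the higher was called on its own. The receptor VLDLR, which takes up very low density lipoprotein, read -0.68, -1.36, 1.18 and -0.99 in liver, against 0.72, -0.11, 1.22 and 0.66 in fat. All livers but replicate 3 lay below every fat array, and the difference of -1.09 missed the threshold (adjusted p = 0.435).

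Genes of fatty acid synthesis and desaturation gave no calls. The list held 39 genes, and ACACB, ME1, ELOVL6 and MLXIPL were among those not measured. Of 28 measured 0 were called higher and 0 lower in liver (limma, adjusted p), the median difference was 0.11 and the range -0.76 to 1.02. With 2.39% of all genes called, 0 of 28 does not set the list apart. At an unadjusted p under 0.05, which 7.74% of all genes passed, 4 were higher and 0 lower, and quantile normalisation or array weights gave 2 calls higher each. The nearest to a call was ATP citrate lyase (ACLY), which supplies the acetyl units, at 0.66, 0.22, 0.43 and 0.25 in liver, against -0.44, -0.37, -0.14 and -0.79 in fat. Its arrays did not overlap and its 3 clones differed by 0.47, 0.95 and 1.06, but the adjusted p was 0.0813 for a difference of 0.83. Acetyl-CoA carboxylase (ACACA), the committed step, differed by 0.40 (adjusted p = 0.999). Fatty acid synthase (FASN) stood at 0.35, -0.08, -0.19 and 0.47 in liver, against -0.48, 0.25, -0.15 and -0.35 in fat, and overlapped. Its clones went opposite ways, 1.08 and -0.44, so the mean of 0.32 (adjusted p = 0.999) hides a disagreement. The desaturases SCD at -0.41 (adjusted p = 0.999) and FADS1 at 0.85 (adjusted p = 0.31) were not called, nor was the regulator SREBF1 at 0.19 (adjusted p = 0.999). A p that misses the threshold does not show equal levels, and the median SE of a difference over all genes was 0.40.

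THRSP, or Spot 14, a nuclear protein tied to lipogenesis, stood at 0.78, -0.36, 0.32 and 0.98 in liver, against -0.05, 0.92, 0.20 and 0.80 in fat, with wide overlap and a difference of -0.04 (adjusted p = 0.999). In both tissues it was above the other chicken tissues of the study, at 0.43 ± 0.59 in liver and 0.47 ± 0.47 in fat, against -1.29 ± 0.78 in breast muscle and -1.05 ± 0.28 in hypothalamus (SD, n = 4 each). Cholesterol synthesis gave the same count, with 0 of 18 genes called higher and 0 lower, a median of 0.13 and a range of -0.59 to 0.81 (limma, with 2 higher and 0 lower at an unadjusted p under 0.05). With 2.39% of all genes called, 0 of 18 does not set this list apart either. The largest difference was that of MSMO1, a sterol demethylation enzyme, at 0.81 (adjusted p = 0.439), and the acetyl-CoA thiolase ACAT2, at 0.75 (adjusted p = 0.272), did not overlap.

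**Figure D3:**
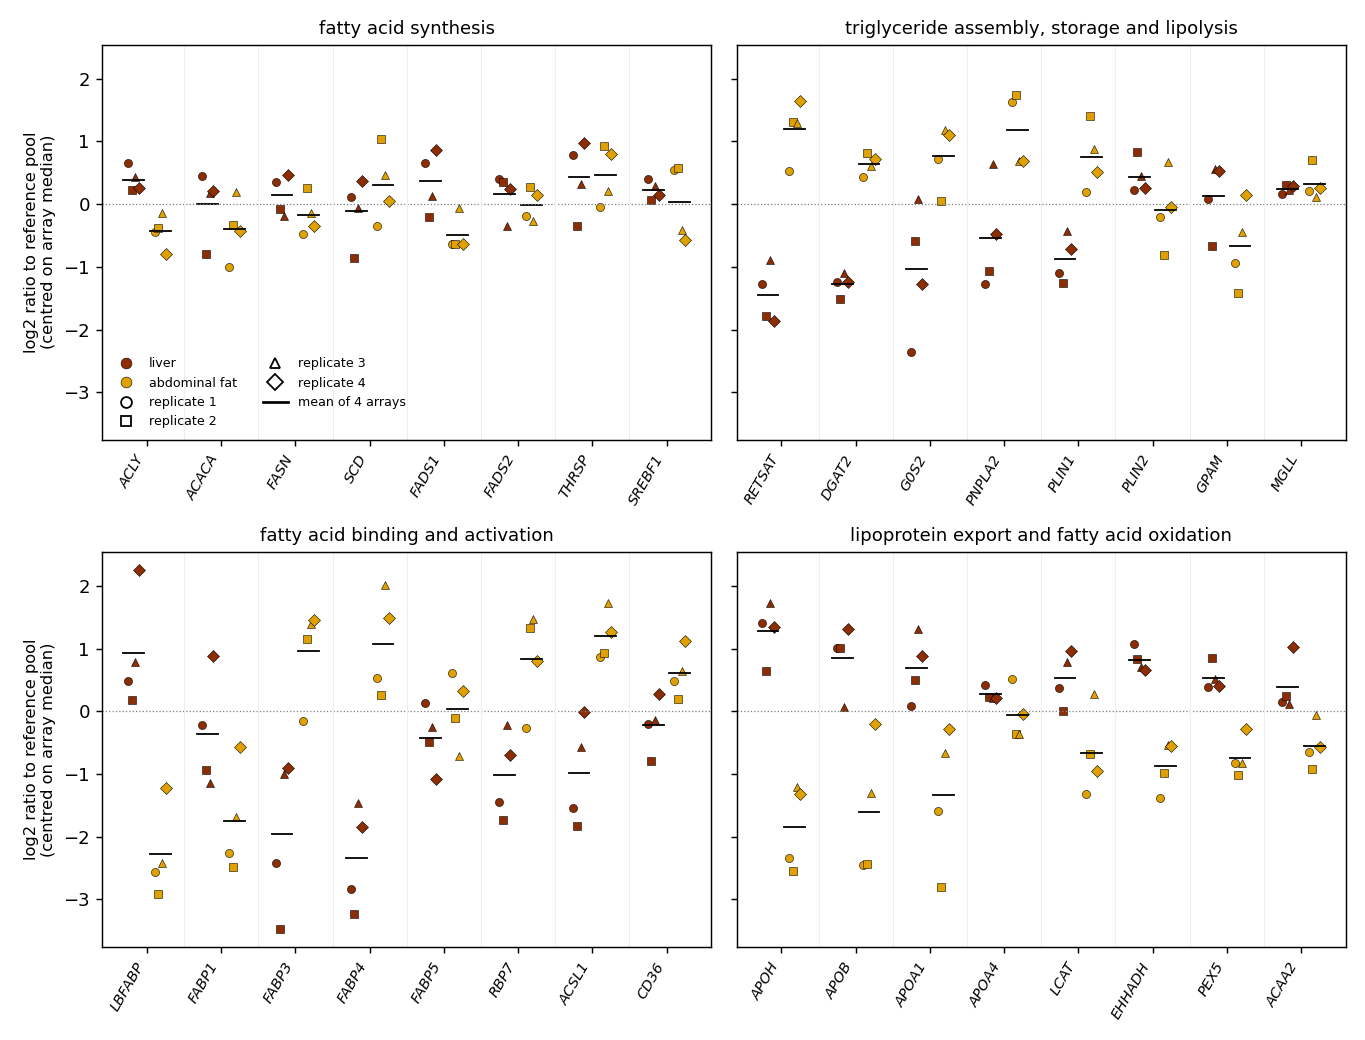
Log2 ratio to the reference pool on each liver (dark, left) and fat (light, right) array for genes of 4 lipid pathways, with replicates by symbol and bars for means of 4 arrays. Synthesis genes lie near 0 in both tissues. Storage genes that passed the test, with RETSAT counted among them, lie below 0 in most livers and above it in fats. LBFABP and FABP4 run opposite ways.

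Triglyceride assembly, storage and lipolysis had 5 of 19 measured members lower in liver and 0 higher, with a median of -0.27. The list held 44 genes, and LPL, LIPE, DGAT1 and CIDEC were among those not measured. DGAT2, which adds the last fatty acid to make triglyceride, was even within each tissue. It stood at -1.24, -1.52, -1.09 and -1.24 in liver, against 0.43, 0.81, 0.60 and 0.71 in fat, without overlap, and differed by -1.91 (SE 0.34, adjusted p = 0.000318). Both of its clones were called. Perilipin 1 (PLIN1), the coat protein of the adipocyte fat droplet, stood at -1.10, -1.26, -0.43 and -0.72 in liver, against 0.19, 1.40, 0.88 and 0.51 in fat, without overlap, and differed by -1.63 (adjusted p = 0.0111). RETSAT, a retinol saturase that is induced during adipocyte differentiation in mammals, had the largest difference of the list, -2.64 (adjusted p = 0.000479). It is counted in the list though it acts on retinol, and the list was chosen with earlier results of these data known.

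Enzyme and inhibitor of fat breakdown stood on the same side. Adipose triglyceride lipase (PNPLA2), which removes the first fatty acid from stored triglyceride, stood at -1.27, -1.07, 0.64 and -0.48 in liver, against 1.63, 1.74, 0.69 and 0.69 in fat. Liver replicate 3 came to within a small distance of fat replicates 3 and 4, and the difference was -1.73 (adjusted p = 0.04). G0S2, the inhibitor of that lipase, stood at -2.36, -0.59, 0.08 and -1.27 in liver, against 0.73, 0.05, 1.18 and 1.11 in fat, with 1 liver array just above the lowest fat array, and differed by -1.80 (adjusted p = 0.0429). Both calls were fragile. PNPLA2 lost its call without liver replicate 1, 2 or 4 or fat replicate 1 or 2, with adjusted p up to 0.225. G0S2 lost it without liver replicate 1, 2 or 4 or fat replicate 1, 3 or 4, with adjusted p up to 0.351. PLIN1 lost it without liver replicate 1 or 2 or fat replicate 2, with adjusted p up to 0.0834. The count of called members was 2 to 5 over the 8 omissions and 5 without both replicate 3 arrays. Other steps were not called. The acyltransferase GPAM, the first step of glycerolipid synthesis, stood at 0.79 (adjusted p = 0.877) and perilipin 2 (PLIN2), found on droplets of many cell types, at 0.54 (adjusted p = 0.868).

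Fatty acid uptake, activation and binding split within 1 protein family. Of 25 genes 1 was higher in liver and 4 were lower, with a median of -0.09. Over all genes 1.46% were called higher and 0.932% lower. The gene higher in liver was LBFABP, the basic fatty acid binding protein of bird liver, at 0.48, 0.18, 0.79 and 2.25 in liver, against -2.56, -2.92, -2.42 and -1.22 in fat, where liver replicate 4 was much the highest. It differed by 3.21 (SE 0.53, adjusted p = 0.000194), a 9.23-fold ratio. FABP1, the other liver type, read -0.22, -0.94, -1.15 and 0.89 in liver, against -2.25, -2.49, -1.68 and -0.58 in fat. Liver replicates 2 and 3 lay below fat replicate 4, and the difference of 1.39 was not called (adjusted p = 0.244). FABP4 and FABP3, the heart and muscle type, ran opposite to LBFABP. FABP3 stood at -2.42, -3.47, -1.0 and -0.90 in liver, against -0.15, 1.15, 1.39 and 1.45 in fat, and differed by -2.91 (adjusted p = 0.00079), on 1 clone. Whether the FABP3 spot takes up transcript of its relative FABP4 was not tested.

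The binding protein RBP7, a cellular retinoid carrier of the same family, was lower in liver at -1.86 (adjusted p = 0.0304), with fat replicate 1 among the livers. It lost its call without liver replicate 1 or 2 or fat replicate 2, 3 or 4, with adjusted p up to 0.167, and was 0.0756 without both replicate 3 arrays. Long-chain acyl-CoA synthetase 1 (ACSL1), which activates fatty acids for use, stood at -1.54, -1.83, -0.56 and -0.01 in liver, against 0.86, 0.93, 1.72 and 1.26 in fat. Livers were spread from well below the pool to its level while every fat array was high, and the difference was -2.18 (adjusted p = 0.00345). The scavenger receptor CD36, a fatty acid transporter, was not called at -0.82 (adjusted p = 0.236). Its 2 clones had opposite signs, at -1.83 and 0.19, and the lower was called on its own. FABP5, a widely expressed binding protein, was not called at -0.45 (adjusted p = 0.999).

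Fatty acid oxidation and ketogenesis had 2 of 28 members higher in liver and 0 lower, with a median of 0.11. Over all genes 1.46% were called higher and 0.932% lower. The list held 1 or 2 calls over the 8 omissions of a single array. Both called genes act in the peroxisome, but its genes were not called as a set. The peroxisomal enzymes ACAA1, ACOX2 and HSD17B4, on 1 clone each, were not called at 0.02, 0.08 and 0.12, nor was PHYH, given below. EHHADH, the bifunctional enzyme of peroxisomal oxidation, stood at 1.08, 0.83, 0.71 and 0.65 in liver, against -1.38, -0.99, -0.54 and -0.55 in fat, with a clear gap and a difference of 1.68 (adjusted p = 0.000668). Its 2 clones read 0.72 and 2.65, and 1 of them was called on its own. PEX5, the receptor that imports proteins into peroxisomes, differed by 1.27 (adjusted p = 0.0281) but was called in only 1 of the 8 omissions of a single array, the omission of fat replicate 4, with adjusted p up to 0.124 in the others. Without both replicate 3 arrays it was 0.122. The mitochondrial thiolase ACAA2 at 0.93 (adjusted p = 0.168) and the phytanic acid enzyme PHYH at 1.09 (adjusted p = 0.145) did not overlap and were not called.

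Adipogenic regulators and adipokines gave few calls, too few to set them apart from all genes, of which 1.46% were higher and 0.932% lower. The same holds for the transcription factors below. Of 26 genes 1 was higher in liver and 0 were lower, with a median of -0.06. The 1 was RARRES2, or chemerin, a secreted chemoattractant made by liver and fat in mammals, at 0.45, 0.56, 0.70 and 1.20 in liver, against -1.20, -1.72, -1.0 and -0.96 in fat, a difference of 1.95 (adjusted p = 0.0045) without overlap. The adipocyte master regulator PPARG stood at -0.84, -0.77, 0.06 and -0.61 in liver, against 0.22, 0.11, -0.06 and 1.17 in fat, and was not called at -0.90 (adjusted p = 0.591). CEBPA, which acts with it, differed by -0.65 (adjusted p = 0.861), with clones at -1.84 and 0.54, and adiponectin (ADIPOQ), an adipocyte hormone, by -0.14 (adjusted p = 0.999), on 1 clone. Liver-enriched transcription factors gave 0 of 10 called in either direction, with a median of -0.05 (limma, with 1 higher and 0 lower at an unadjusted p under 0.05), and HNF4A, a hepatocyte regulator, differed by 0.52 (adjusted p = 0.999).

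Collagen calls were all on the fat side. Of 22 chains 7 were lower in liver and 0 higher, with a median of -0.56. COL1A2, a chain of type I collagen, stood at -2.51, -2.96, -1.13 and -1.87 in liver, against 0.89, 0.50, 1.84 and 1.30 in fat, and differed by -3.25 (SE 0.52, adjusted p = 0.000103), so that fat exceeded liver 9.53-fold. COL3A1, the type III chain, stood at -2.06, -2.56, -1.34 and -1.24 in liver, against 0.04, 0.27, 1.07 and 0.98 in fat, and differed by -2.39 (adjusted p = 0.000145), with clones at -3.75 and -1.03. COL5A1 and COL5A2, of the type V fibrils that set fibre width, differed by -2.40 (adjusted p = 0.0175) and -1.14 (adjusted p = 0.0396), and the 2 clones of COL5A2 read -2.01 and -0.27. COL1A1, the partner of COL1A2 in type I collagen, read -0.39, -1.32, -0.19 and -1.05 in liver, against -0.06, 0.07, -0.93 and -0.43 in fat. Its arrays overlapped, and the difference of -0.40 was not called (adjusted p = 0.999). COL1A1, COL1A2 and COL5A1 were read by 1 clone each.

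All 3 measured chains of type VI collagen, a bead-like filament around adipocytes, were lower in liver. COL6A1 stood at -1.90, -0.46, -1.04 and -1.93 in liver, against 0.97, 0.87, 1.29 and 1.45 in fat, and differed by -2.48 (adjusted p = 0.000949). COL6A3 differed by -2.50 (adjusted p = 0.00345), with liver replicate 2 far below the others, and COL6A2 by -1.73 (adjusted p = 0.0369). COL6A1 and COL6A3 were read by 1 clone each. The basement membrane chain COL4A1 did not overlap but at -1.27 (adjusted p = 0.0514) just missed the threshold. Its clones disagreed, at -2.56 and 0.02, and the lower was called on its own. COL18A1, another basement membrane collagen, stood at -0.88 (adjusted p = 0.14). Of the 7 calls, COL5A1 was lost without liver replicate 1 or 2 or fat replicate 3 (adjusted p up to 0.151). COL5A2 was lost without liver replicate 1, 2 or 4 or fat replicate 1, 3 or 4 (up to 0.277). COL6A2 was lost in all omissions but that of liver replicate 3 (up to 0.176). The count of called chains was 4 to 8 over the 8 omissions and 7 without both replicate 3 arrays.

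**Figure D4:**
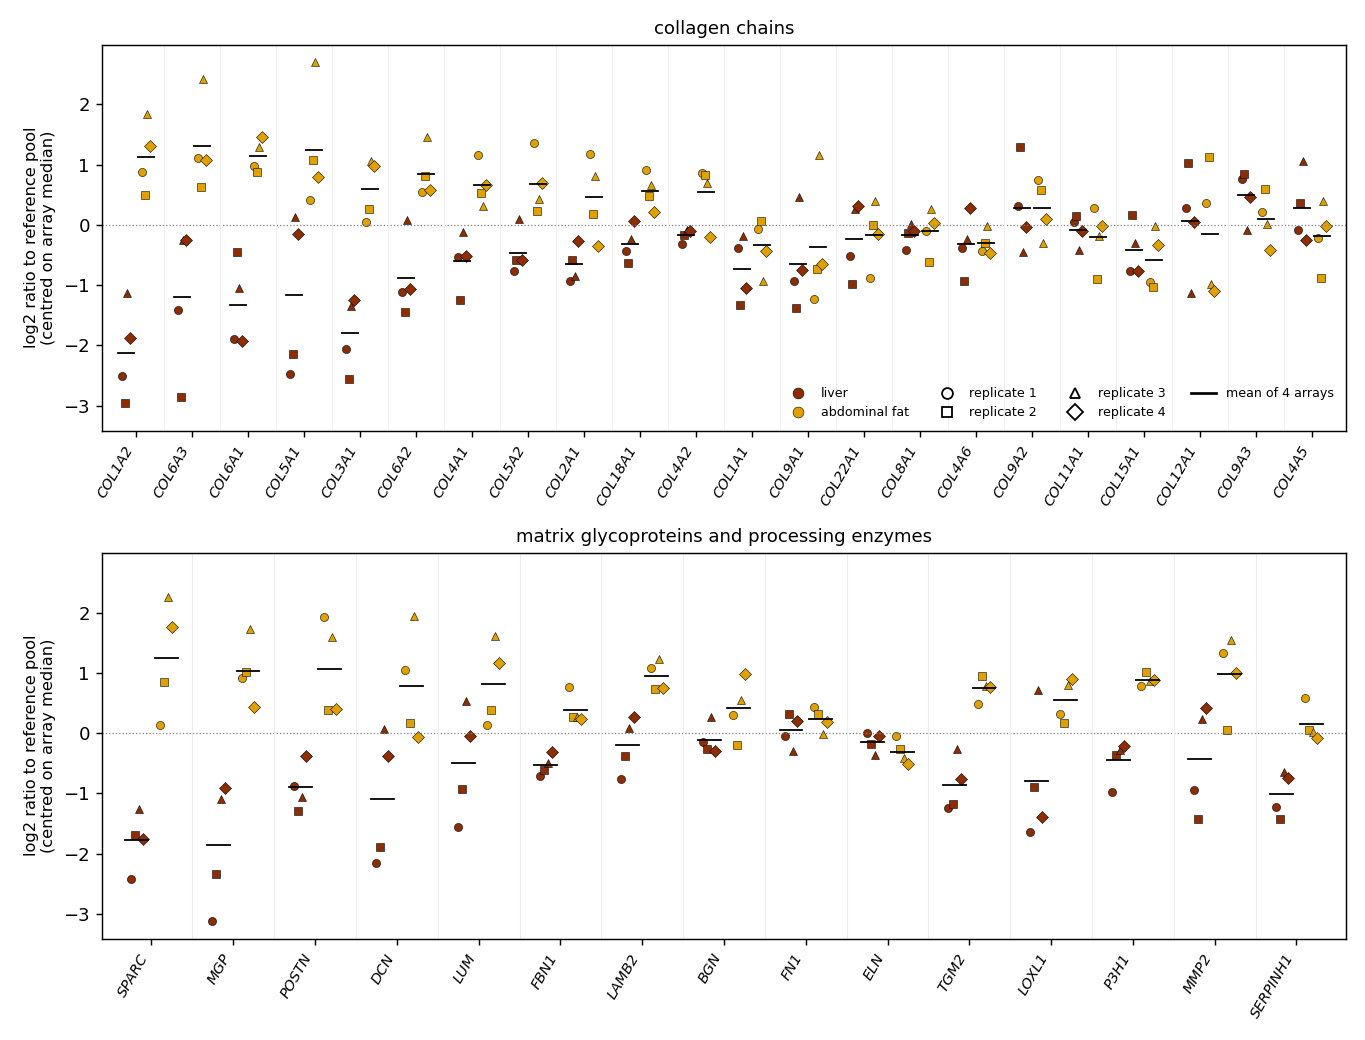
Log2 ratio to the reference pool on each liver (dark, left) and fat (light, right) array for all 22 measured collagen chains, ordered by difference, and for 15 other matrix genes, with replicates by symbol and bars for means of 4 arrays. COL1A2, COL3A1 and the type VI chains separate the tissues, and COL1A1, FN1 and ELN do not.

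Matrix glycoproteins and proteoglycans had 3 of 49 members lower in liver and 0 higher, with a median of -0.21. Over all genes 0.932% were called lower and 1.46% higher. SPARC, a collagen-binding protein, stood at -2.42, -1.69, -1.26 and -1.76 in liver, against 0.13, 0.85, 2.26 and 1.76 in fat. Fat replicate 1 was the lowest fat array and still above every liver, and the difference was -3.03 (SE 0.42, adjusted p = 8.75e-06). Matrix Gla protein (MGP), an inhibitor of calcification, stood at -3.12, -2.33, -1.10 and -0.91 in liver, against 0.91, 1.01, 1.73 and 0.44 in fat, with the livers in a lower and a higher pair, and differed by -2.89 (adjusted p = 0.00175). Periostin (POSTN), a fibroblast adhesion protein, differed by -1.97 (adjusted p = 0.00623), with 0.0559 without fat replicate 1 and 0.0752 without both replicate 3 arrays. The small proteoglycans decorin (DCN) at -1.87 (adjusted p = 0.0746) and lumican (LUM) at -1.32 (adjusted p = 0.396) overlapped and were not called. Fibronectin (FN1) averaged -0.19 (adjusted p = 0.999), but its 6 clones had both signs, at -1.50, -1.25, 0.03, 0.22, 0.60 and 0.78, with 0 called. Fibrillin 1 (FBN1) was not called, with clones at -1.78 and -0.05, of which the lower was called on its own.

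Of 29 matrix processing genes 1 was lower in liver and 0 were higher, with a median of -0.36. Of all genes 0.932% were called lower and 1.46% higher, so this count does not set the list apart. The called gene was transglutaminase 2 (TGM2), which cross-links matrix proteins, at -1.25, -1.18, -0.27 and -0.76 in liver, against 0.48, 0.95, 0.78 and 0.77 in fat, a difference of -1.61 (adjusted p = 0.00638) with no overlap. Its call was lost when a single clone stood for each gene. The collagen prolyl hydroxylase P3H1 at -1.34 (adjusted p = 0.0806) did not overlap either and was not called. The gelatinase MMP2 was not called at -1.41 (adjusted p = 0.316), nor was the collagen chaperone SERPINH1 at -1.16 (adjusted p = 0.147). Of the 2 clones of SERPINH1, at -1.87 and -0.45, the lower was called on its own.

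The list of liver amino acid, steroid and xenobiotic enzymes had 16 of 66 members higher in liver and 0 lower, with a median of 0.42, and held the largest difference of all genes. The list was chosen with earlier results of these data known, so its count is no independent evidence of a direction. HSD11B1B, a hydroxysteroid 11-beta dehydrogenase, stood at 1.09, 1.12, 1.37 and 2.40 in liver, against -3.48, -2.82, -2.78 and -1.65 in fat, and differed by 4.18 (SE 0.55, adjusted p = 5.05e-06), an 18.1-fold ratio on 1 clone. Serine synthesis was called at all of its steps, with PHGDH, the first enzyme, at 1.97 (adjusted p = 0.004), PSAT1, the aminotransferase, at 1.72 (adjusted p = 0.0362) and PSPH, the phosphatase, at 3.64 (adjusted p = 5.05e-06). PSPH stood at 0.48, 0.68, 1.59 and 1.78 in liver, against -2.94, -3.11, -2.66 and -1.30 in fat, far apart on every array. PSAT1 overlapped and lost its call without liver replicate 1, 2 or 3 or fat replicate 1, 2 or 4, with adjusted p up to 0.224. STEAP3, a ferric reductase counted in the list though it acts on iron, had the smallest p of all genes, at 0.73, 1.11, 1.56 and 0.93 in liver, against -2.49, -3.00, -2.32 and -1.46 in fat, and differed by 3.40 (SE 0.35, adjusted p = 2.47e-08).

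Methionine and tyrosine enzymes followed. MAT1A, which makes S-adenosylmethionine in liver, differed by 1.83 (adjusted p = 0.00554), with 0.0559 without fat replicate 1. AHCY, which clears S-adenosylhomocysteine, differed by 1.13 (adjusted p = 0.0272), lost without liver replicate 1 or 4 or fat replicate 1, 2 or 3 (up to 0.247). The liver and fat arrays of MAT1A and of AHCY overlapped. The folate enzyme SHMT1 differed by 1.57 (adjusted p = 0.00638), with 0.0679 without liver replicate 1. HPD, in tyrosine breakdown, differed by 2.63 (adjusted p = 0.0013), and the aminotransferase TAT, which starts it, by 1.63 (adjusted p = 0.0198), lost without liver replicate 1, 2 or 3 or fat replicate 1 or 2 (up to 0.162). The clones of TAT read 0.92 and 2.33 and those of AHCY 0.69 and 1.57. The alcohol dehydrogenases ADH6 and ADH1C differed by 2.51 (adjusted p = 0.00118) and 2.23 (adjusted p = 0.00183). The sulfotransferase SULT1C3 differed by 2.05 (adjusted p = 0.003) and the oxysterol hydroxylase CYP39A1 by 1.73 (adjusted p = 0.00879), with 0.0567 without liver replicate 4. The glutathione transferases GSTA3 and GSTA2, whose sequences are close relatives, differed by 2.06 (adjusted p = 0.0239) and 1.49 (adjusted p = 0.00792). GSTA3 was lost without liver replicate 1, 3 or 4 or fat replicate 1 or 2 (up to 0.182). GSTA2 was lost without liver replicate 4 or fat replicate 1 or 2 (up to 0.0651). The arrays of GSTA3 overlapped, with liver replicate 2 at -1.17 among the fats. Without both replicate 3 arrays 13 members of this list were called, and without fat replicate 1 there were 10.

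Some of the largest differences fell outside the lists of metabolic and secreted genes. XIRP1, an actin-binding repeat protein of muscle adhesion sites, had the largest negative difference of all genes, at -2.57, -3.30, -1.26 and -1.43 in liver, against 1.62, 1.07, 1.78 and 1.47 in fat, with -3.62 (SE 0.49, adjusted p = 7.21e-06) on 1 clone. Every fat array was above 1, and fat was also above breast muscle, at 1.49 ± 0.30 in fat against -1.0 ± 0.86 in muscle (SD, n = 4 each). The other 13 skeletal muscle markers were not called, with differences between -0.57 and 0.46. The mean level of the muscle marker list was -2.07 to -1.06 in livers and -1.80 to -0.91 in fats, against -1.31 to 0.92 in breast muscle.

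Further genes of large difference were higher in liver for the tetraspan protein genes TM4SF1a at 3.06 (adjusted p = 0.00079) and TM4SF4 at 2.33 (adjusted p = 0.000949), the membrane protein gene TMEM123 at 2.79 (adjusted p = 0.000318) and LOC415661, which has no name here, at 2.85 (adjusted p = 0.00079). Lower in liver were the membrane protein gene TMEM119 at -2.53 (adjusted p = 0.00204), the tripartite motif gene TRIM105 at -2.56 (adjusted p = 0.0117), gelsolin (GSN), which severs actin filaments, at -2.42 (adjusted p = 0.0144) and the zinc finger transcription factor gene ZBTB17 at -2.41 (adjusted p = 7.11e-05). TRIM105 was lost without liver replicate 1 or 2 or fat replicate 2 or 3 (up to 0.118) and GSN without liver replicate 1 or 2 or fat replicate 3 (up to 0.122). Most such genes rest on a single clone. Of the 154 called genes 91 had 1 clone, as did 3840 of all 6438 genes. Of the 63 called genes with more, 56 had all clones on the same side. Sides were counted by sign alone, however small the difference, and a call on the mean of clones favours a shared sign. Of 18547 clones 371 were called (2.0%), 227 higher (1.22%) and 144 lower (0.776%). Clones without a gene name here gave 102 higher and 54 lower calls of 8599, with differences of up to 4.29 and down to -4.19.

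Markers were set against the tissue labels. The direction of the ratio was itself read from ALB and FABP4, which are among these markers, so their side is a description and no independent check. Of 12 hepatocyte markers 11 were higher in liver, all but FABP1, and 9 without both replicate 3 arrays. Their mean level was 0.42 to 0.93 in livers and -2.37 to -1.02 in fats. Of 8 listed adipocyte markers, CIDEC, LPL and LIPE were not among the genes measured. Of the 5 measured 3 were lower in liver (FABP4, PLIN1 and G0S2), and ADIPOQ and PPARG were not called. Without liver replicate 1, and likewise without liver replicate 2, 1 of the 5 was called. Their mean level was -1.54 to -0.41 in livers and 0.22 to 0.85 in fats. Of 9 fibroblast markers 5 were lower in liver (COL1A2, COL3A1, SPARC, MGP and POSTN), with mean levels of -1.66 to -0.51 in livers and 0.49 to 1.23 in fats. Fat replicate 3 had the highest adipocyte and fibroblast means of the fats, and liver replicate 3 the highest of the livers. What part such cells had in the collagen and storage results was not tested.

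Markers of other cells gave few calls, as did all genes, at 2.39%. Of 12 leukocyte markers 1 was lower in liver, the class II invariant chain CD74 at -1.32 (adjusted p = 0.0227), over 5 clones at -2.72, -1.53, -1.35, -1.07 and 0.07, lost without liver replicate 1 or 2 or fat replicate 3 or 4 (up to 0.157), and the list means were -0.44 to 0.12 in livers and -0.41 to 0.25 in fats. Calls numbered 0 of 4 erythrocyte, 0 of 8 smooth muscle, 0 of 4 mesothelial and 0 of 4 bile duct and stellate cell markers (limma), with 1 smooth muscle marker lower and 0 others passing an unadjusted p under 0.05. Of 12 neuron and glia markers 1 was lower in liver, PTGDS, the lipocalin-type prostaglandin D synthase of brain, at -2.32, -2.57, 0.04 and -1.90 in liver, against -0.59, 0.60, 2.17 and 1.01 in fat. Its arrays overlapped through liver replicate 3, and it differed by -2.48 (adjusted p = 0.00317). The other 11 markers of that list ran from -0.67 to 0.86.

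**Figure D5:**
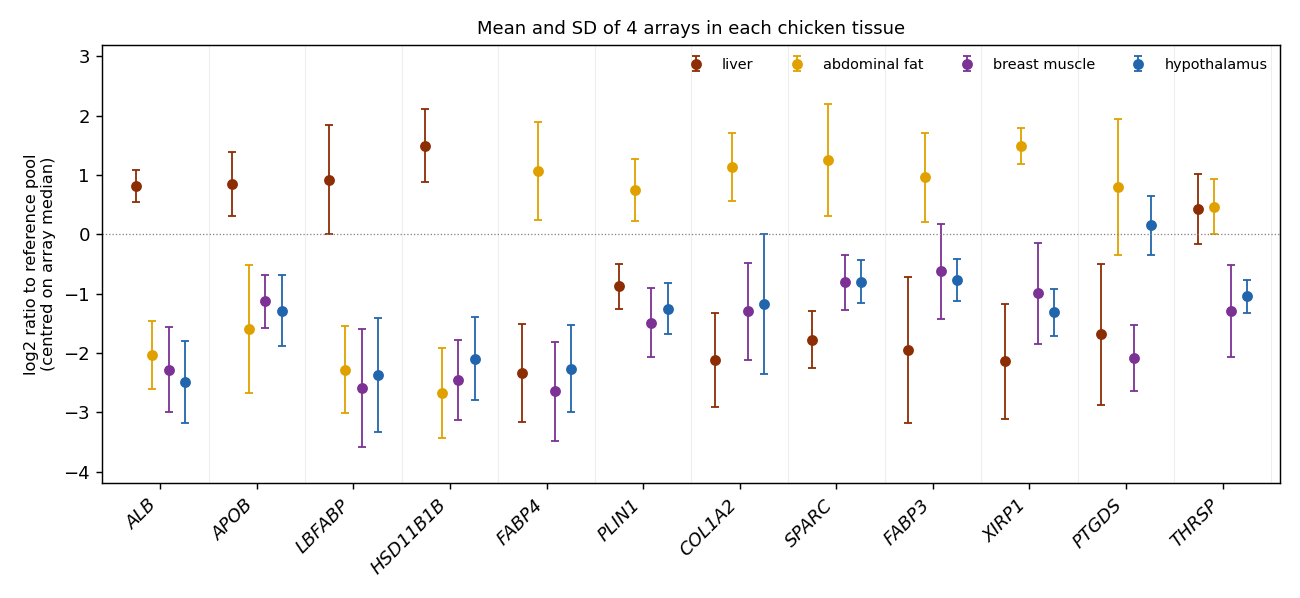
Mean and SD of 4 arrays, as log2 ratio to the reference pool, in liver, abdominal fat, breast muscle and hypothalamus for 12 genes. ALB, APOB, LBFABP and HSD11B1B are above 0 in liver alone, FABP4, PLIN1, COL1A2, SPARC, FABP3 and XIRP1 in fat alone, PTGDS in fat and hypothalamus and THRSP in liver and fat.

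Levels in breast muscle and hypothalamus were set beside those of the called genes. In all 94 genes higher in liver the liver mean was the highest of the 4 chicken tissues, and in all 60 genes lower in liver the fat mean was the highest. Over all genes these shares were 24.5% and 21%. The calls themselves choose genes that are high in liver or fat, so this is a description. A highest mean is not a level found in 1 tissue alone, as PSAT1 averaged 0.36 in liver and -1.36 in fat, against -1.25 in muscle and 0.25 in hypothalamus. Albumin averaged 0.82 ± 0.27 in liver and -2.04 ± 0.57 in fat, against -2.28 ± 0.72 in muscle and -2.49 ± 0.69 in hypothalamus (SD, n = 4 each), so fat did not lie beyond the spread of the other tissues. FABP4 averaged -2.34 ± 0.83 in liver and 1.07 ± 0.82 in fat, against -2.65 ± 0.84 in muscle and -2.26 ± 0.73 in hypothalamus, and liver likewise lay within the spread of the tissues that are not fat. FABP3 differed in this respect, as its mean of -1.95 in liver was under the -0.62 of muscle and the -0.77 of hypothalamus.

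Over the 12 group means of all species and tissues, which share the reference pool and the chicken probes, the genes whose levels ran most like albumin were TM4SF4 (Pearson r of 0.957), PLG (0.956), FGA (0.953), SERPIND1 (0.952) and SPIA4 (0.943). Those most like FABP4 were the phospholipase gene DDHD1 (0.951), TMEM119 (0.933), the respiratory complex I gene NDUFS7 (0.933), RETSAT (0.932) and COL1A2 (0.926). Fat is a single group among the 12, so likeness to FABP4 can rest largely on the fat arrays. It is a description and adds no independent evidence to the comparison of liver with fat. DDHD1 was lower in liver at -2.83 (adjusted p = 0.0011), though liver replicate 3 overlapped with the fats. NDUFS7 did not overlap and at -0.94 (adjusted p = 0.0532) was not called.

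The replicates of a tissue kept a common order in many called genes. In 44 of the 60 genes lower in liver (73.3%), liver replicates 1 and 2 were both below replicates 3 and 4, against 28.4% of all genes, and replicate 3 was the highest liver in 47 (78.3%, against 37.3%). In 60 of the 94 genes higher in liver (63.8%) fat replicate 4 was the highest fat array, against 18.9% of all genes, and fat replicate 1 was the lowest in 43 (45.7%, against 28.0%) and fat replicate 2 in 46 (48.9%, against 29.0%). The SD over all genes was 0.584 and 0.751 in liver replicates 1 and 2, against 0.655 and 0.658 in fat replicates 1 and 2. It was 0.553 and 0.55 in liver replicates 3 and 4, against 0.556 and 0.491 in fat replicates 3 and 4. The part of array quality in these orders was not tested.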

How the data were processed

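Each array compared Cy3-labelled cDNA of a tissue sample with the Cy5-labelled reference pool, from 25 micrograms of RNA each, per the labels' protocols. The deposited values are linear ratios per spot for 19200 spots on 43 arrays and the image analysis, background correction and normalisation behind them are not stated in the labels. Median ratios per array lay between 0.535 and 1.83. Ratios were put on the log2 scale and centred on each array's median, repeated spots were averaged to 18547 clones, and clones of a gene to 6438 genes, named through the platform table and current symbols (10455 of 10601 named spots matched).

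Genes were tested with limma 3.58.1 in R 4.3.3, with 12 group means over all 43 arrays, empirical Bayes and Benjamini-Hochberg adjustment over all genes. All printed adjusted p-values come from that fit or, where an array is said to be left out, from the same fit without it. The fit was tested on simulated data with 200 changed genes. The simulated errors were independent, so that test does not speak to deviations shared between arrays. Genes named are ALB and FABP4, the 15 largest called differences without overlap in each direction, and members of the lists. The 5 genes most like ALB or FABP4 are named too. The called genes outside the lists under other observations were chosen after their values were seen. The members and the gene lists were chosen with earlier results of these data known. Python 3.11.15 made summaries and figures. Alternatives changed the scaling, arrays, weights and clone rule. Leaving out both replicate 3 arrays together was chosen after seeing the data.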

Additional observations from a re-analysis of the deposited data

Results flagged for a closer look

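Sets of 4 arrays of a tissue, 256 in all, came from 128 of the named genes in both tissues. Of these sets 10 held an array set apart from the others by Dixon's test. That test divides the gap to the nearest array by the whole range. Chance alone gives about 5% of sets, and the 10 of 256 found here do not exceed that share. In liver, AHSG was 1.98 in replicate 3, FGA was 1.37 in replicate 4, RBP4A was 1.64 in replicate 4, ITIH2 was 1.64 in replicate 2 and SHMT1 was 1.41 in replicate 1. Each was the highest liver array and on the side of the called difference. ACAA2 at 1.02 in liver replicate 4 and APOA4 at 0.42 in liver replicate 1 were also the highest liver arrays, in genes that were not called. In fat, FADS1 at -0.0677 and MSMO1 at 0.12 were both highest in replicate 3, the fat array that stood apart from the others, and BCO2 was lowest in replicate 4, at -0.0199. No cause was tested.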

How the results depend on the processing

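The count of 154 called genes and 371 called clones moved most with array weights (305 and 741), quantile normalisation (245 and 603) and a replicate block over the 8 liver and fat arrays (271 and 898). The 8 liver and fat arrays alone gave 146 genes, 132 of them among the 154. Leaving out 1 array gave 100 to 159 genes and 241 to 384 clones. Same-numbered arrays deviated together at r of 0.319, 0.205, 0.559 and -0.0807, and differently numbered ones at -0.475 to 0.242. Whether the numbers pair the samples is not known from these values. The block was not used for any call, and 152 of the 154 genes remained called under it. ALB and FABP4 kept direction and call in every alternative run, and 0 of the named called genes reversed. Of the 85 named called genes, 55 kept their call in all 8 omissions of a single array. The other 30 lost it in at least 1 omission. Of the lists, array weights, quantile normalisation and the block raised the members called higher to 10 each for coagulation (6 reported) and to 4, 5 and 5 for complement (2 reported). They raised those called lower to 8, 7 and 7 for matrix glycoproteins (3 reported) and to 5, 3 and 5 for matrix processing (1 reported). With a single clone per gene 0 matrix processing genes were called. Without array centring 3 storage genes were called (5 reported). Some small differences that were not called changed sign. THRSP read 0.0087 with quantile normalisation, 0.0586 with array weights and 0.0433 with a single clone per gene, and -0.2215 to 0.2239 with 1 array left out. APOA5 read 0.2786 with a single clone per gene. With 1 array left out ADIPOQ ran from -0.3037 to 0.0041 and SREBF1 from -0.0074 to 0.3701. The cause was not tested. Precision is limited by the 4 arrays per tissue and by the arrays that stand apart, and 91 of the 154 called genes rest on 1 clone. Tissue and extraction method cannot be told apart.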

Other observations

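The genes below, apart from the neuron and glia marker PTGDS, are called genes outside the lists. They were chosen after their values were seen. The prostaglandin D synthases divided, as HPGDS, the blood cell and macrophage type in mammals, was higher in liver at 1.55 (adjusted p = 0.0379) while the lipocalin type PTGDS was lower at -2.48 (adjusted p = 0.00317). HPGDS stood at -0.07, -1.27, 0.55 and 1.02 in liver, against -1.96, -1.81, -1.16 and -1.03 in fat, with liver replicate 2 among the fat arrays, and it lost its call in 6 of the 8 omissions of a single array, all but those of liver replicate 2 and fat replicate 4, with adjusted p up to 0.262. ATIC, which closes the purine ring, was higher in liver at 1.80 (adjusted p = 0.00638), and so was MTHFD2, a mitochondrial folate enzyme, at 1.80 (adjusted p = 0.00512). ATIC stood at 0.90, 0.96, 0.64 and 1.14 in liver, against -1.34, -1.29, -0.45 and -0.47 in fat, without overlap.

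AOC3, an amine oxidase of vessel and fat cell surfaces in mammals, was higher in liver, at 0.93, 1.25, 0.26 and 0.56 in liver, against -1.46, -0.98, -0.51 and -1.31 in fat, and differed by 1.82 (adjusted p = 0.000949). BCO2, which cleaves carotenoids, was lower in liver at -2.27 (adjusted p = 0.00242), with fat replicate 4 far below the other fats. CCDC80, a secreted matrix protein of fat tissue in mammals, was lower in liver at -2.29 (adjusted p = 0.000274) and did not overlap.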
